A study of Homo sapiens with 8 samples.

Results

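The 10 genes described here encode proteins that detect nucleic acids in the wrong place in a cell, or that act directly after such detection. They were chosen by name from a table of 25369 named genes: IFI16, AIM2 and MB21D1 (cGAS) for DNA, DDX58 (RIG-I), IFIH1 (MDA5) and DHX58 (LGP2) for RNA, the adaptors TMEM173 (STING) and MAVS, the kinase TBK1 and the nuclease TREX1. Poly(A) RNA was sequenced from the ovarian cancer line UWB1.289, which carries a BRCA1 mutation (BRCA1-null), and from the same line after transduction with BRCA1 (BRCA1+). Each line was cultured for 24 h in DMSO (control) or in 0.5 uM entinostat, an inhibitor of class I histone deacetylases. The 4 groups, BRCA1+ control, BRCA1+ entinostat, BRCA1-null control and BRCA1-null entinostat, had 2 libraries each. Every group derives from a single parental line carrying the mutation, so the lines differ in the transduced BRCA1 and in whatever else separates the derivative from its parent. The labels do not say that the replicates came from separate cultures, and the p-values below then measure only the spread between these libraries.

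In the classical scheme, cGAS binds DNA in the cytosol and makes a cyclic dinucleotide that activates STING, while RIG-I and MDA5 bind viral or misplaced double-stranded RNA and activate MAVS on mitochondria. Both routes converge on TBK1, which phosphorylates the transcription factor IRF3 and thereby induces type I interferon. Several of the sensors are themselves induced by interferon, and TREX1 degrades cytosolic DNA and so removes the ligand of cGAS.

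Total counts ranged from 31900158 to 53549893 per library, and 3 counts, the limit that a count of 0 allows, corresponded to 0.0552 to 0.0946 CPM (counts scaled to an effective library size of 1e6). These limits cover counting error only. BRCA1 had 3954 to 5473 counts in the libraries labelled BRCA1+ and 800 to 1218 counts in those labelled BRCA1-null. All 6 epithelial and ovarian carcinoma markers examined were detected in every group, with a summed level of 9713 to 12126 CPM. The 11 markers of leukocytes, fibroblasts and endothelium summed to 19.9 to 44.7 CPM, and 2 or 3 of them were at 0 in each group, the fibroblast markers DCN and LUM in every library. Some markers differed between the lines in DMSO: CD68 (log2 fold change of 1.23) and VWF (52 and 50 counts in BRCA1+ against 107 and 167 in BRCA1-null libraries) were higher in BRCA1-null cells, and CD14 (-2.06) and the epithelial list's WT1 (-2.87, on 1 to 20 counts per library) were lower. At an adjusted p under 0.05, 1 of the 6 epithelial markers was higher and 1 lower in BRCA1-null cells in DMSO. Over all genes tested, 21.1% were higher and 21.0% lower. The part of these marker differences in the results was not tested. In bulk libraries, fewer cells expressing a gene and less RNA per cell cannot be told apart.

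Expression per transcript length separated the abundant from the scarce members. By RPKM (reads scaled to transcript length and library size), averaged over the 8 libraries, MB21D1 was the most abundant at 18.4 (range 15.1 to 23.1), followed by MAVS at 14.3 (12.5 to 15.7) and TBK1 at 12.4 (10.7 to 14.5). The ranges of MB21D1 and MAVS overlapped, as did those of MAVS and TBK1. TMEM173 (6.91 RPKM, range 4.50 to 9.26) and IFIH1 (6.22, range 4.54 to 8.19) formed a middle pair whose ranges overlapped. TREX1 stood at 2.96 RPKM (1.74 to 4.02), DHX58 at 0.398 (0.050 to 0.905) and DDX58 at 0.0383 (0.0101 to 0.0544). IFI16 ran through most of this order, from 0.0826 to 13.0 RPKM, as its level differed between the lines. AIM2 had 0 counts in all 8 libraries. Transcripts of cGAS, STING, TBK1 and TREX1 and of MDA5 and MAVS were thus present in both lines, whereas AIM2 was not detected and RIG-I lay near the limit of detection. In BRCA1+ libraries LGP2 and IFI16 were also scarce, at 5 to 10 and 11 to 18 counts per library.

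**Figure D1:**
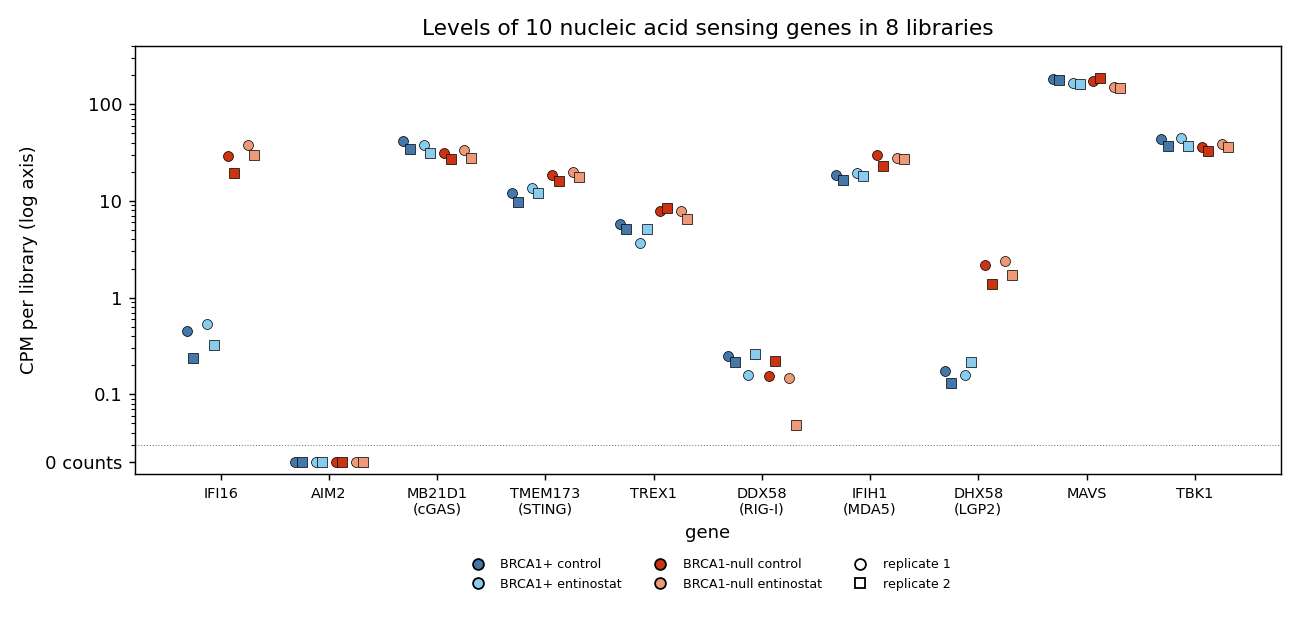
Level of each gene in each library in CPM on a logarithmic axis, coloured by group, with circles for replicate 1 and squares for replicate 2. IFI16 and DHX58 lay far higher in the 4 BRCA1-null libraries than in the 4 BRCA1+ libraries, DDX58 stayed at or below 0.259 CPM, and AIM2, drawn below the dotted line, had 0 counts throughout.

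Between the lines in DMSO, 5 of the 9 members that passed the filter on low counts were higher in BRCA1-null cells (IFI16, DHX58, TMEM173, TREX1 and IFIH1), against 21.1% of all 17714 genes tested, and 1 was lower (MB21D1), against 21.0% of all genes. DDX58, MAVS and TBK1 were not called. The median log2 fold change of the 9 members was 0.60, beside 0.012 over all genes tested. In entinostat, 5 of 9 were higher in BRCA1-null cells, against 20.5% of all genes, and 0 were lower, against 18.9% of all genes. The likelihood ratio test and DESeq2 also called 5 members in entinostat, and 6 members had an unadjusted p under 0.05. The 5 genes called higher in entinostat were the 5 called higher in DMSO, and the median was 0.55, beside 0.019 over all genes. A gene was called at an adjusted p under 0.05 in the quasi-likelihood test of edgeR (Benjamini-Hochberg), which gave every adjusted p printed here. All comparisons draw on the same 4 groups, so the line and entinostat comparisons share libraries.

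**Figure D2:**
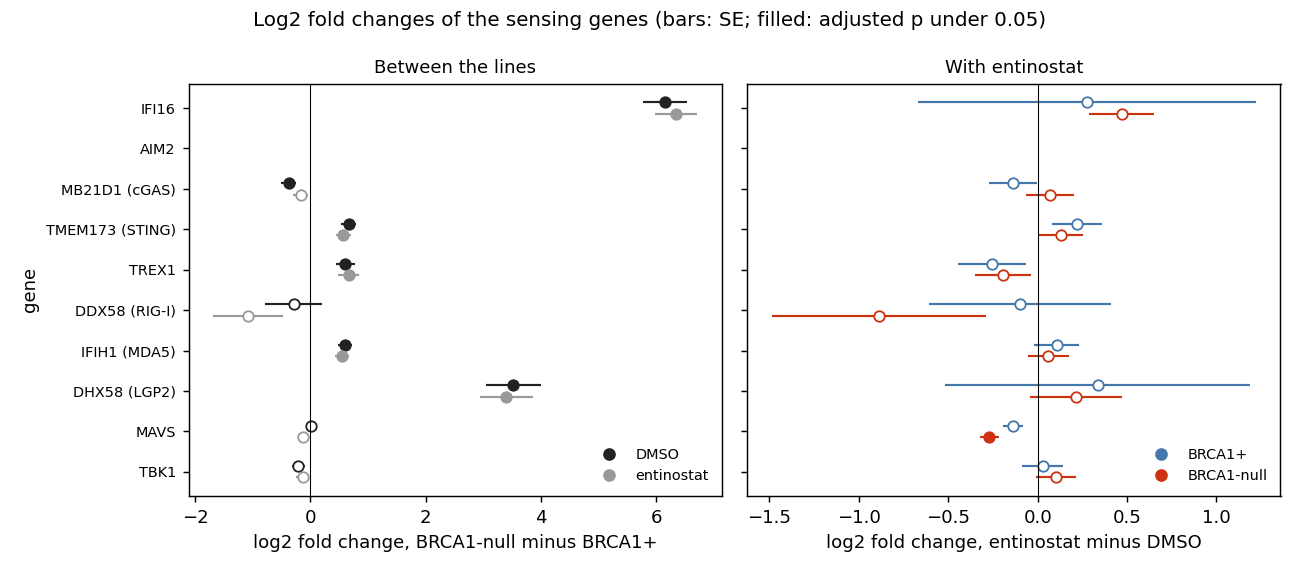
Log2 fold change of the 9 tested members (points) with SE (bars), between the lines on the left and with entinostat on the right, where filled points have an adjusted p under 0.05. IFI16 (6.15 in DMSO and 6.35 in entinostat) and DHX58 (3.52 and 3.40) stand far to the right of the other members between the lines, and MAVS in BRCA1-null cells (-0.27) is the filled point with entinostat.

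IFI16 (chromosome 1, 158979682 to 159024945, plus strand, hg19) encodes a DNA-binding protein of the PYHIN family that is found in nucleus and cytosol and is inducible by interferon. In DMSO it had 18 and 11 counts in the BRCA1+ libraries (0.450 and 0.240 CPM) and 1338 and 1056 counts in the BRCA1-null libraries (29.4 and 19.4 CPM). In entinostat it had 17 and 15 counts in BRCA1+ cells (0.536 and 0.323 CPM) and 1762 and 1232 counts in BRCA1-null cells (37.6 and 29.5 CPM). Every BRCA1-null library exceeded every BRCA1+ library by a wide margin. The log2 fold change was 6.15 ± 0.386 (SE) in DMSO, a 71.3-fold difference with an adjusted p of 5.74e-06, and 6.35 ± 0.369 in entinostat, with an adjusted p of 4.37e-06. It stayed between 5.74 and 6.64 in DMSO when each library was left out in turn. The PYHIN relatives of IFI16 did not share this level: MNDA had 0 counts in all libraries, PYHIN1 had at most 2 counts in any library, and AIM2 (chromosome 1, 159032275 to 159046647, minus strand), the inflammasome-forming DNA sensor encoded beside IFI16, had 0.

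MB21D1 (chromosome 6, 74134856 to 74162043, minus strand) encodes cGAS, the enzyme at the head of the STING route, and was the member that was lower in BRCA1-null cells. BRCA1+ libraries had 41.6 and 34.4 CPM in DMSO and 37.7 and 31.6 CPM in entinostat, and BRCA1-null libraries had 31.4 and 27.2 CPM in DMSO and 33.4 and 27.8 CPM in entinostat. The lines did not overlap in DMSO but did in entinostat. Its log2 fold change in DMSO was -0.37 ± 0.134 (SE) with an adjusted p of 0.0485, a call that was lost in 8 of 18 alternative settings, among them both filters and the upper-quartile factors, where it was -0.33 with an adjusted p of 0.0805. Leaving out BRCA1+ control replicate 1 moved it most, to -0.23 with an adjusted p of 0.255. Without BRCA1-null control replicate 1 or 2 the call was also lost, at adjusted p values of 0.0560 and 0.241. In entinostat its log2 fold change was -0.17 with an adjusted p of 0.365.

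TMEM173 (chromosome 5, 138855113 to 138862343, minus strand) encodes STING, the adaptor of the endoplasmic reticulum that receives the cGAS signal. It had 12.2 and 9.78 CPM in BRCA1+ control libraries and 18.5 and 16.2 CPM in BRCA1-null control libraries, and in entinostat 13.5 and 12.1 CPM against 20.1 and 17.8 CPM. The lines did not overlap under either treatment. The log2 fold change was 0.67 ± 0.131 (SE) in DMSO, a 1.59-fold difference with an adjusted p of 0.00321, and 0.58 ± 0.130 in entinostat, with an adjusted p of 0.00693 that rose to 0.0742 without BRCA1+ entinostat replicate 2. STING and cGAS are consecutive steps of the same route, and in DMSO their values had opposite signs (0.67 and -0.37).

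TREX1 (chromosome 3, 48506919 to 48509044, plus strand) encodes the exonuclease that clears cytosolic DNA. BRCA1+ libraries had 5.70 and 5.12 CPM in DMSO (228 and 235 counts) and 3.69 and 5.15 CPM in entinostat (117 and 239 counts). BRCA1-null libraries had 7.87 and 8.54 CPM in DMSO (358 and 464 counts) and 7.87 and 6.44 CPM in entinostat (369 and 269 counts), with no overlap between the lines under either treatment. The log2 fold change was 0.61 ± 0.165 (SE) in DMSO, with an adjusted p of 0.0159, and 0.67 ± 0.18 in entinostat, with an adjusted p of 0.0162. The call in DMSO was lost without BRCA1+ control replicate 2 (adjusted p of 0.101) or BRCA1-null control replicate 2 (0.0817), and the call in entinostat without BRCA1+ entinostat replicate 1 (0.104) or BRCA1-null entinostat replicate 1 (0.108). In entinostat the value itself ranged from 0.47 to 0.96 as libraries were left out, the highest without BRCA1+ entinostat replicate 2. TREX1 shares 136 bases with ATRIP on the same strand, and the lines differed in ATRIP by 0.12 in DMSO with an adjusted p of 0.358. Whether reads in the shared bases were counted for TREX1 was not tested.

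Of the 3 RNA helicases, MDA5 was moderately and LGP2 strongly higher in BRCA1-null cells, while RIG-I was barely detected in either line. IFIH1 (chromosome 2, 163123589 to 163175218, minus strand), which encodes MDA5, the sensor of long double-stranded RNA, had 18.3 and 16.3 CPM in BRCA1+ control and 29.5 and 23.1 CPM in BRCA1-null control libraries. In entinostat it had 19.2 and 18.1 CPM in BRCA1+ cells and 27.5 and 27.1 CPM in BRCA1-null cells, so the lines were separate under both treatments. The log2 fold change was 0.60 ± 0.121 (SE) in DMSO, a 1.51-fold difference with an adjusted p of 0.00367, and 0.55 ± 0.122 in entinostat, with an adjusted p of 0.00600 that rose to 0.0566 without BRCA1+ entinostat replicate 2.

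DHX58 (chromosome 17, 40253422 to 40264751, minus strand) encodes LGP2, which binds RNA but lacks the signalling domains of the other helicases and modulates them. BRCA1+ libraries had 7 and 6 counts in DMSO and 5 and 10 in entinostat, whereas BRCA1-null libraries had 100 and 76 in DMSO and 111 and 71 in entinostat. As CPM the BRCA1+ libraries lay between 0.131 and 0.216 and the BRCA1-null libraries between 1.40 and 2.37. The log2 fold change was 3.52 ± 0.478 (SE) in DMSO, an 11.5-fold difference with an adjusted p of 4.07e-04, and 3.40 ± 0.459 in entinostat, with an adjusted p of 4.09e-04. Even in BRCA1-null cells the level of DHX58 per transcript length stayed below that of TREX1 (at most 0.905 against at least 1.74 RPKM).

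DDX58 (chromosome 9, 32455300 to 32526322, minus strand) encodes RIG-I, the sensor of RNA ends with a triphosphate. BRCA1+ libraries had 10 and 10 counts in DMSO and 5 and 12 in entinostat, and BRCA1-null libraries had 7 and 12 in DMSO and 7 and 2 in entinostat. At these counts no difference was detectable: the log2 fold change was -0.29 ± 0.494 (SE) in DMSO, with an adjusted p of 0.673, and -1.08 ± 0.613 in entinostat, with an adjusted p of 0.199. The genes on either side of DDX58 were well expressed, ACO1 with 1617 to 4014 counts and TOPORS with 921 to 1878 counts per library.

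No difference between the lines was called for MAVS or TBK1, the hubs downstream of the sensors. MAVS (chromosome 20, 3827446 to 3856770, plus strand), the mitochondrial adaptor of RIG-I and MDA5, had 181 and 178 CPM in BRCA1+ control and 175 and 185 CPM in BRCA1-null control libraries, a log2 fold change of 0.0084 ± 0.0540 (SE) with an adjusted p of 0.914. TBK1 (chromosome 12, 64845840 to 64895899, plus strand) had 43.3 and 36.8 CPM against 36.5 and 33.0 CPM, a log2 fold change of -0.21 ± 0.112 with an adjusted p of 0.172. For TBK1 the lines were separate in DMSO by a narrow margin and overlapped in entinostat (44.8 and 37.1 CPM against 38.7 and 35.7 CPM). For MAVS the lines were separate in entinostat, at 165 and 161 CPM in BRCA1+ against 152 and 147 CPM in BRCA1-null libraries. That log2 fold change of MAVS was -0.12 ± 0.0545 (SE), with an unadjusted p of 0.0477 and an adjusted p of 0.101.

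Few members were called with entinostat. In BRCA1+ cells 0 of 9 members were called, against 8.15% of all genes higher and 6.00% lower, with 1 member (MAVS) at an unadjusted p under 0.05 and 0 called by DESeq2 or the likelihood ratio test. In BRCA1-null cells 1 of 9 was called, lower, against 3.19% of all genes lower, and 0 were higher, against 7.57%. The called gene was MAVS, at 175 and 185 CPM in control and 152 and 147 CPM in entinostat libraries. Its log2 fold change was -0.27 ± 0.0542 (SE), which leaves 0.829 of the control level, with an adjusted p of 0.0165. The call was lost without BRCA1-null control replicate 2 (adjusted p of 0.107), BRCA1-null entinostat replicate 1 (0.0614) or BRCA1-null entinostat replicate 2 (0.0785), and the value stayed between -0.33 and -0.23. In BRCA1+ cells MAVS had 181 and 178 CPM in control and 165 and 161 CPM in entinostat libraries, a log2 fold change of -0.14 ± 0.0544 with an adjusted p of 0.128.

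IFI16, with the largest difference between the lines among the members, had a log2 fold change of 0.47 ± 0.183 (SE) with entinostat in BRCA1-null cells, which did not pass the threshold (adjusted p of 0.136). Its entinostat libraries (37.6 and 29.5 CPM) lay just above its control libraries (29.4 and 19.4 CPM). Without BRCA1-null control replicate 1 the value was 0.77, with an adjusted p of 0.0338. The other members had log2 fold changes with entinostat between -0.89 (DDX58 in BRCA1-null cells) and 0.34 (DHX58 in BRCA1+ cells), and both of these extremes belong to genes with few counts. The difference between the entinostat effects of the lines was called for 0 of 9 members, against 0% of all genes, with 0 at an unadjusted p under 0.05, 0 called by DESeq2 or the likelihood ratio test, and a smallest adjusted p of 0.967. With these libraries the SE of that difference ran from 0.0768 for MAVS to 0.982 for IFI16.

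Replicates of a group differed in the same direction for many of these genes. Replicate 1 was above replicate 2 for 9 of 9 tested members in BRCA1+ control, 6 of 9 in BRCA1+ entinostat, and likewise 6 of 9 in BRCA1-null control and 9 of 9 in BRCA1-null entinostat, while over all tested genes the shares were between 49.2% and 50.2%. For a list of interferons and early response genes (22 tested) replicate 1 was higher for 18, 17, 20 and 22 genes in the same order of groups. The median ratio of replicate 1 to replicate 2 of that list was 2.09 in BRCA1-null control and 1.43 in BRCA1-null entinostat libraries, against 1.14 and 1.21 for the members. The part of this replicate difference in the line comparisons was examined only by leaving out each library and by a fit with the replicate number as a block, given below. As each library was left out, the calls of IFI16, DHX58, IFIH1 and TMEM173 in DMSO held in every case.

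**Figure D3:**
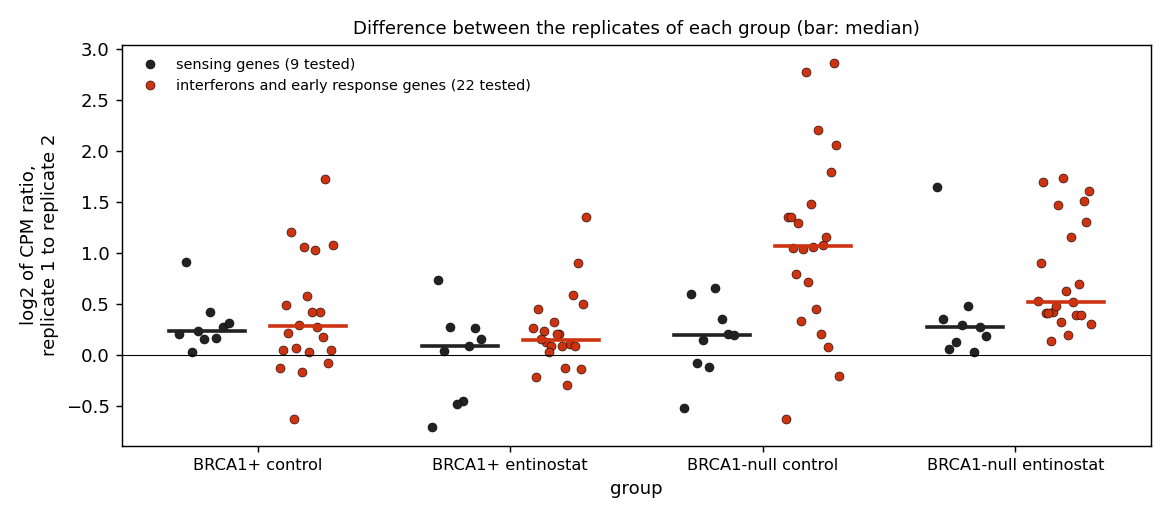
Log2 of the ratio of replicate 1 to replicate 2 in CPM, for each tested member (black) and each gene of the interferon and early response list (red), by group, with bars at the medians. CXCL10 has no finite log2 ratio in BRCA1+ control (1 and 0 counts) or BRCA1+ entinostat (0 and 1 counts) and is not drawn there. The red points lie highest in BRCA1-null control, where the median ratio was 2.09.

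Sequences upstream of the transcription start were inspected for the members because several of them, whatever their values here, belong to the genes that interferon is known to induce. Windows from RefSeq (GRCh38.p14, 250 bases before to 50 after a start) matched 7 members (IFI16 with a pair of windows, AIM2, DDX58, IFIH1, MAVS, TBK1 and TREX1), and MB21D1, DHX58 and TMEM173 were not matched. They were searched on both strands for GAAANNGAAA, the core of the interferon-stimulated response element, and for GAAANGAAA, the same with a shorter spacer. GAAANNGAAA occurred in 3.57% and GAAANGAAA in 3.12% of 35116 promoter windows of this length. IFIH1 had 3 matches to GAAANNGAAA, 159, 153 and 21 bases before the start, of which the most distant pair overlap each other. AIM2 had 1 match to it, 190 bases before the start. GAAANGAAA occurred in the downstream window of IFI16, 54 bases before the start, and in DDX58, 203 bases before it. The windows of MAVS, TBK1 and TREX1 held neither motif, and no matches to different motifs overlapped. The 250 bases before the start are printed 5′ to 3′ on the gene's strand for the 4 members with a match, to show where it lies, with the matches in capitals, and a match on the opposite strand appears as its reverse complement.
IFI16, chr1:159009657-159009906, plus strand: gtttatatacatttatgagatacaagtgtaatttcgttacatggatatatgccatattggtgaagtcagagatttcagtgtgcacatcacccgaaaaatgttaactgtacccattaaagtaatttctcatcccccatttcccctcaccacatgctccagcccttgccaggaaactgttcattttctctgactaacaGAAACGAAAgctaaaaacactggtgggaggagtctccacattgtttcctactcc
IFIH1, chr2:162318685-162318934, minus strand: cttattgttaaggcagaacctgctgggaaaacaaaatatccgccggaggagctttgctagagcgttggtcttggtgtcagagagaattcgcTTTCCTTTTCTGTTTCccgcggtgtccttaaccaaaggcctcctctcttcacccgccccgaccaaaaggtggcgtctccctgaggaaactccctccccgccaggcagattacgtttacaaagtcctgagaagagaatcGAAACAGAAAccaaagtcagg
DDX58, chr9:32526197-32526446, minus strand: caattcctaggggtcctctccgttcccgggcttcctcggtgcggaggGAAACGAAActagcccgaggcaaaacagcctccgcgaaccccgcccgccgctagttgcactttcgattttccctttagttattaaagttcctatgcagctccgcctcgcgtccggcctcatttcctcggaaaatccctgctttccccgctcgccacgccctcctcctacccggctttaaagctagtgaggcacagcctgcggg
AIM2, chr1:159076767-159077016, minus strand: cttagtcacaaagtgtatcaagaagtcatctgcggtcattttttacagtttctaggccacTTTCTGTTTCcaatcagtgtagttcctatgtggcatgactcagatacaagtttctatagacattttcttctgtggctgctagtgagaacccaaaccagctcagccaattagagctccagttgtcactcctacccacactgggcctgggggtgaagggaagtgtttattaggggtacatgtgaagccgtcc
Of these 4 genes, IFI16 and IFIH1 were higher in BRCA1-null cells, DDX58 was near the limit of detection and AIM2 had 0 counts. Among the genes whose windows held neither motif, TREX1 was also higher, and MAVS and TBK1 were not called. Of the genes not searched, DHX58 and TMEM173 were higher and MB21D1 was lower in DMSO. The part of these motifs in the line differences was not tested.

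The wider pathway was described with 128 further genes in 4 lists, of which 117 were tested. In DMSO 65 of these were called, with BRCA1-null cells higher for 42 and lower for 23, and in entinostat 49, higher for 36 and lower for 13. Over all genes tested, 21.1% were higher and 21.0% lower in DMSO, and 20.5% and 18.9% in entinostat. The count fell in DMSO without BRCA1+ control replicate 2 and in entinostat without BRCA1+ entinostat replicate 2, as did the calls over all genes. Among 22 tested interferons and early response genes, 12 were higher, 0 were lower and 10 were not called in DMSO, with a median log2 fold change of 1.40, beside 21.1% higher and 21.0% lower and a median of 0.012 over all genes. These calls depended on single libraries: 4 were higher, and genes that included HERC5 and IFIT5 were lower, without BRCA1-null control replicate 1, where the median was 0.72, and 5 and 4 were higher without BRCA1+ control replicate 1 and 2. IFI44 was higher by 5.24 ± 0.573 (SE; adjusted p of 1.15e-04). CXCL10, a chemokine induced by interferon, had 1 and 0 counts in BRCA1+ control and 28 and 12 counts in BRCA1-null control libraries. IFNB1 itself, the gene of interferon-beta, had at most 1 count in any library. In entinostat 4 of the 22 were called, IFI44, CXCL10, ISG20 and IRF9, all higher, with a median of 0.49. That median was 0.098 without BRCA1-null entinostat replicate 1 and 0.93 without BRCA1-null entinostat replicate 2. Leaving out a library moved the count of higher genes from 2 (without BRCA1+ entinostat replicate 2) to 9 (without either BRCA1-null control library, where calls in the lower direction, HERC5 among them, also appeared).

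**Figure D4:**
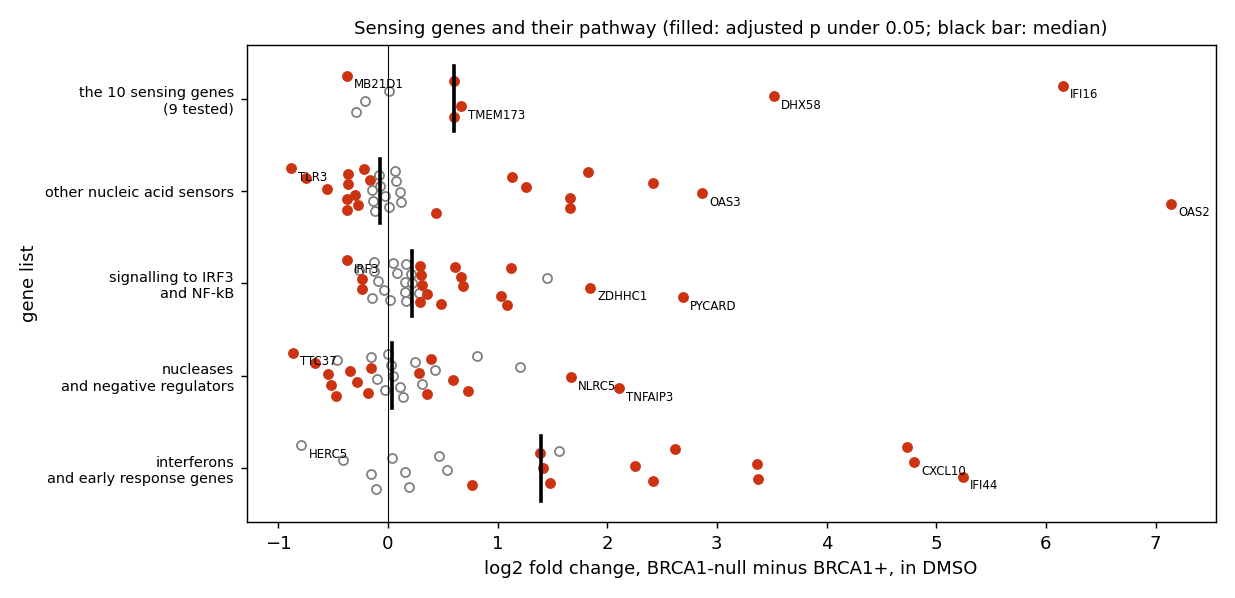
Log2 fold change of each tested gene between BRCA1-null and BRCA1+ cells in DMSO, for the members and for the 4 pathway lists, where filled points have an adjusted p under 0.05 and black bars are medians. The early response list has a median of 1.40, whereas the medians of the other lists lie between -0.072 and 0.22. The value of CXCL10 rests on 0 and 1 counts in BRCA1+ control and depends on the prior count.

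Of 34 tested genes that carry signals from the sensors to IRF3 and NF-kB, 14 were higher, 3 were lower and 17 were not called in DMSO, beside 21.1% higher and 21.0% lower over all genes. PYCARD, the inflammasome adaptor that AIM2 would use, had 23 and 33 counts in BRCA1+ control and 218 and 203 in BRCA1-null control libraries, a log2 fold change of 2.69 ± 0.250 (SE; adjusted p of 4.47e-05). ZDHHC1 was higher by 1.84 ± 0.540 (adjusted p of 0.0223) on 2 to 100 counts per library, a call that was lost without BRCA1+ control replicate 1 or BRCA1-null control replicate 2, at adjusted p values up to 0.0902. Its log2 fold change ranged from 1.06 to 4.37 as libraries were left out. IRF3, the substrate of TBK1, was lower, with 124 and 115 CPM in BRCA1+ control and 91.2 and 93.0 CPM in BRCA1-null control libraries, a log2 fold change of -0.37 ± 0.060 (adjusted p of 0.00105). IRF7, the relative of IRF3 that interferon induces, was higher by 1.09 ± 0.296 (adjusted p of 0.0160). That call was lost without BRCA1+ control replicate 2 or BRCA1-null control replicate 1, where the value was 0.59. In entinostat 16 of the 34 genes were higher, 1, IRF3, was lower and 17 were not called. Over all genes, 20.5% were higher and 18.9% lower there.

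Among 31 other tested nucleic acid sensors the directions were mixed, with 9 higher, 11 lower and 11 not called in DMSO and a median of -0.072, again beside 21.1% higher and 21.0% lower over all genes. OAS2 and OAS3, which make the activator of RNase L on binding double-stranded RNA, were higher by 7.15 ± 1.67 (adjusted p of 0.00755) and 2.86 ± 0.395 (adjusted p of 4.33e-04). OAS2 had 5 and 2 counts in BRCA1+ control libraries and 993 and 157 in BRCA1-null control libraries, so the replicates of the higher group differed widely, and the adjusted p was 0.0601 without BRCA1+ control replicate 2. TLR3, the endosomal receptor of double-stranded RNA, had a log2 fold change of -0.89 ± 0.226 (adjusted p of 0.0119) with 45 to 93 counts per library (adjusted p of 0.0853 without BRCA1+ control replicate 2). Of 30 tested nucleases and negative regulators, 7 were higher, 9 were lower and 14 were not called, with a median of 0.035, beside the same 21.1% and 21.0%. TNFAIP3, an inhibitor of NF-kB signalling, was higher by 2.11 ± 0.117 (adjusted p of 2.94e-06).

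With entinostat, 13 of the 117 pathway genes were called in BRCA1+ cells, 6 higher and 7 lower, and 14 in BRCA1-null cells, 9 higher and 5 lower. Over all genes 8.15% were higher and 6.00% lower in BRCA1+ cells, and 7.57% and 3.19% in BRCA1-null cells. When a library of the line concerned was left out, the calls over all genes fell, and so did those among the pathway genes. The difference between the lines in this effect was called for 0 of them, with 9 at an unadjusted p under 0.05 and 0 called by DESeq2 or the likelihood ratio test. TLR9, the endosomal DNA receptor, had 15 and 15 counts in BRCA1+ control and 29 and 45 in BRCA1+ entinostat libraries, a log2 fold change of 1.43 ± 0.332 (SE; adjusted p of 0.0235). In BRCA1-null cells it went from 53 and 58 counts to 99 and 79, a log2 fold change of 0.85 ± 0.201 (adjusted p of 0.0304). CASP1, the protease of the inflammasome, rose in BRCA1-null cells by 1.61 ± 0.377 (adjusted p of 0.0296), from 18 and 11 counts to 43 and 36. The call of TLR9 was lost in BRCA1+ cells without any of the 4 BRCA1+ libraries (adjusted p up to 0.144) and in BRCA1-null cells without any library but BRCA1+ control replicate 2 (up to 0.151). That of CASP1 was lost without BRCA1-null control replicate 2 or either BRCA1-null entinostat library (up to 0.172).

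The position of the members on the chromosome was considered because differences between the lines can extend over neighbouring genes. The 5 tested genes on either side of IFI16 had a median log2 fold change of 0.29 in DMSO, from -0.061 to 0.68, and 0 of these 10 were called, against 6.15 for IFI16. The nearest on either side, CD1D and DUSP23, lay 823 and 726 kb away, so these genes do not describe its immediate surroundings. The 10 spanned 2964 kb, against 377 kb around DHX58 and 5893 kb around DDX58. Several had few counts, such as CD1D with 14 to 78 per library. Of all genes tested, 21.1% were called higher and 21.0% lower in DMSO. Around DHX58 the median was -0.018, with 2 of 10 above and 2 below at an adjusted p under 0.05, against 3.52 for the gene itself. TMEM173 lay among lower neighbours, with a median of -0.48, 5 called lower and 0 called higher, yet was itself higher by 0.67. MB21D1 and DDX58 also lay among lower neighbours, with medians of -0.39 (5 called lower) and -0.54 (7 called lower) and 0 called higher in either case. Their own values were -0.37 and -0.29. Around the remaining members the medians were 0.16 for IFIH1, -0.14 for MAVS, -0.16 for TBK1 and 0.20 for TREX1. Of the 10 neighbours of each, 2 were called higher and 2 lower for IFIH1, 1 and 1 for MAVS, 1 and 1 for TBK1, and 4 and 1 for TREX1. In the deposited table IFI16 and AIM2 also lie inside the listed spans of SRGAP2D and FAM72C, which cover 85474150 and 62258550 bases. These had log2 fold changes of 0.037 and 0.40 in DMSO, and neither was called.

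**Figure D5:**
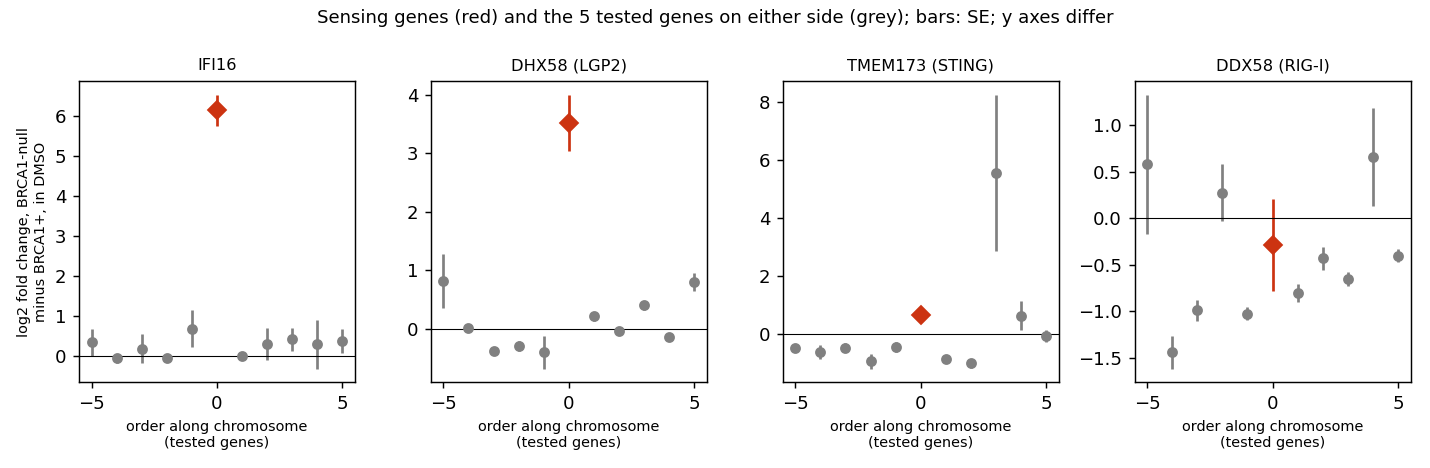
Line difference in DMSO on the log2 scale with SE (bars) for 4 members (red diamonds) and for the 5 tested genes on either side in chromosomal order (grey circles), with a separate vertical scale in each panel. IFI16 (6.15) and DHX58 (3.52) rise above flanks with medians of 0.29 and -0.018, and TMEM173 (0.67) stands among neighbours with a median of -0.48. Distances differ between panels, and the nearest flanks drawn for IFI16 lay 823 and 726 kb away.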

How the data were processed

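Poly(A) RNA-seq of 8 libraries was analysed from a single table of raw gene counts that the authors deposited after alignment to hg19 with TopHat 2 and counting with NGSUtils. How strand and reads with several positions were counted is not given in the sources used here. Groups and replicate numbers came from the sample titles. The 10 members and all gene lists were chosen with earlier results of these data known. The members were all described. Of the other lists, each comparison's 3 called genes with the largest change in either direction and 14 listed genes could be named. IRF9 and the genes that turned lower without a library were named after their values were seen.

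Counts were fitted in R 4.3.3 with edgeR 4.0.16: filterByExpr (17714 genes kept), TMM factors, a quasi-likelihood fit across all genes with a mean per group (4 residual degrees of freedom), two-sided tests and Benjamini-Hochberg adjustment over all genes tested. SE is the absolute log2 fold change divided by the square root of F, so it belongs to the test. CPM uses effective library sizes and RPKM the transcript length of the deposited table. Positions on hg19 are counted from 1. Alternatives were other size factors, filters and tests (DESeq2 1.42.0, likelihood ratio, legacy estimate), the replicate block, fits on the groups compared, an unadjusted p also under 0.01, and leaving out each library. Its use for the early response list and single pathway genes was chosen after seeing the data. The scripts were tested on simulated data. The values of 1 listed gene are not reported here.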

Additional observations from a re-analysis of the deposited data

How the results depend on the processing

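Of 45 gene results (9 members in 5 comparisons), 22 kept their direction and their side of the threshold under each of the alternatives run, up to 18 per result, and the stricter filter gave no value for DDX58. As each library was left out, the sensor genes called between the lines numbered 4 to 6 in DMSO and 3 to 5 in entinostat, and the pathway genes 35 to 66 and 30 to 55, with the lowest counts of 35, 30 and 3 without replicate 2 of the BRCA1+ group concerned. With entinostat in BRCA1+ cells, the 13 pathway genes became 20 in a fit on the groups compared and 3 to 15 with libraries left out, and all 4 BRCA1+ libraries lowered the count when omitted (6, 5, 3 and 3). In BRCA1-null cells, the 14 became 9 with DESeq2, 5 in a fit on the groups compared and 0 to 12 with libraries left out (9 without either BRCA1+ entinostat library, 2 without BRCA1-null control replicate 2, 0 and 3 without BRCA1-null entinostat replicate 1 and 2). The sensor genes called there numbered 0 without any of the last 3 libraries and 2 without BRCA1-null control replicate 1. Calls over all genes also fell whenever a library of the groups compared was left out. The cause of these changes was not tested.

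The labels tie replicates 1 and 2 of different groups by number alone, with no shared culture or day named, so the numbers were not taken to pair the libraries. Deviations of same-numbered libraries correlated positively in all 6 pairs of groups (0.0523 to 0.287), over 0.1 in 4 of them. With the block, all genes called with entinostat went from 2505 to 4319 in BRCA1+ and from 1906 to 3641 in BRCA1-null cells. Under the same replicate block, the pathway genes called with entinostat rose to 28 (BRCA1+) and 25 (BRCA1-null), and the sensor genes in the BRCA1-null line to 2, as IFI16 (0.47) was added at an adjusted p of 0.00387. The block also called TBK1 between the lines in DMSO (-0.20) and MB21D1 in entinostat (-0.18).

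Directions that turned when a library was left out all belonged to values that were not called. Between the lines in DMSO, MAVS ran from -0.032 to 0.068. With entinostat in BRCA1+ cells, IFI16 ran from -0.13 to 0.77, MB21D1 from -0.27 to 0.0038, DDX58 from -0.56 to 0.15 and TBK1 from -0.10 to 0.16. In BRCA1-null cells, MB21D1 ran from -0.076 to 0.19, IFIH1 from -0.11 to 0.22 and DHX58 from -0.10 to 0.53. For the difference between the lines in the entinostat effect, IFI16 ran from -0.31 to 0.60, IFIH1 from -0.22 to 0.11, DHX58 from -0.44 to 0.18, TMEM173 from -0.26 to 0.064, TBK1 from -0.064 to 0.20 and TREX1 from -0.14 to 0.35. At 2 to 18 counts per library, changes in DDX58 and, in BRCA1+ cells, in IFI16 and DHX58 were limited by depth.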

Other observations

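The genes whose profile over the 8 libraries was most like that of a member were listed by Pearson's r of log2 CPM, among 13117 or 13118 tested genes whose log2 CPM averaged 1 or more. These values are a description, because the 8 libraries come from 2 lines, and genes with a large line difference share that feature. For IFI16 the closest genes were CLCN2 (r = 0.999), ADAMTS9 and TCN2, for DHX58 they were ZMIZ2 (r = 0.998), CCAT1 and SRMS, and for TMEM173 they were GSAP (r = 0.998), DGAT2 and BIRC3. The gene most like IFIH1 was OAS3 (r = 0.992), itself a sensor of double-stranded RNA. TREX1 was most like ULK1 (r = 0.983), TRIM5 and SNX8. MB21D1, TBK1, DDX58 and MAVS had a negative r with IFI16 (-0.64, -0.52, -0.60 and -0.31). MB21D1 and TBK1 had an r of 0.909 with each other over the 8 libraries, against 0.991 for IFI16 and DHX58. In every group replicate 1 was above replicate 2 for both MB21D1 and TBK1, and the part of this in their r was not tested.

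CCL5, a chemokine, went the other way from ISG20 with entinostat in BRCA1-null cells. CCL5 had 85 and 157 counts in control and 63 and 39 in entinostat libraries, a log2 fold change of -1.07 ± 0.279 (SE; adjusted p of 0.0419 from edgeR). ISG20, an exonuclease induced by interferon, had 318 and 331 counts in control and 693 and 432 in entinostat libraries, a log2 fold change of 0.95 ± 0.173 (adjusted p of 0.0117). It also rose in BRCA1+ cells, from 29 and 25 counts to 53 and 85, by 1.48 ± 0.424 (adjusted p of 0.0477). NLRC5, a regulator of interferon signalling and of antigen presentation genes, rose by 1.28 ± 0.333 in BRCA1+ cells (adjusted p of 0.0339) and, with BRCA1-null cells, by 0.93 ± 0.200 (adjusted p of 0.0221). All of these calls were lost without some libraries: CCL5 without any but BRCA1-null control replicate 1 (adjusted p up to 0.227), ISG20 in BRCA1-null cells without BRCA1-null control replicate 2 or BRCA1-null entinostat replicate 1 (up to 0.0793), ISG20 in BRCA1+ cells without any library but the BRCA1-null entinostat pair (up to 0.217), and NLRC5 without any library of the line concerned (up to 0.167 and 0.101).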
